A study of Mus musculus with 2 samples.

Results

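The dual specificity MAP kinase phosphatases remove phosphate from both the threonine and the tyrosine that switch a MAP kinase on. The set described here was chosen by name and holds 8 genes, Dusp1, Dusp3, Dusp4, Dusp5, Dusp6, Dusp10, Dusp14 and Dusp16, of which 6 were represented among 12393 genes with a probe set of their own in the platform annotation. Their transcripts were compared in mouse uterine epithelial cells taken in the morning on day 4 of gestation, in a Stat3 knockout group and in a control group. Each group was 1 Affymetrix Mouse Genome 430A 2.0 array, hybridised with pooled total RNA, and the design text gives n = 3 per sample without saying whether these were animals. The titles of both samples name Stat3 flox control mice, so the genotype label separates the groups, and the Cre driver that removed Stat3 is not given in the sources used here. The epithelium was freed by trypsin, first cold and then warm, and was not cultured or treated. Because each group had 1 array, no difference below has a replicate check, and each is described by its size with no p-value.

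As background, MAP kinases fall into the ERK branch, which answers mainly to growth factors, and the p38 and JNK branches, which answer mainly to stress and cytokines. Each is switched on by a MAP kinase kinase, which is switched on in turn by a RAF or MAP kinase kinase kinase. Many of the phosphatase genes are themselves induced by the kinases that their products inactivate, so that they act as negative feedback. Dusp1 encodes an inducible nuclear phosphatase of p38, JNK and ERK, and Dusp16 and Dusp10 encode phosphatases that prefer JNK and p38. Dusp6 encodes a cytoplasmic phosphatase of ERK, Dusp5 a nuclear phosphatase of ERK, and Dusp4 another nuclear member. Dusp3 and Dusp14 encode small atypical enzymes without the kinase-binding domain of the others. STAT3 is the transcription factor through which leukaemia inhibitory factor acts on the uterine epithelium before embryo attachment.

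Dusp1 and Dusp16, which encode phosphatases that act on p38 and JNK, were more than 2-fold higher in the knockout array, while the ERK phosphatase Dusp6 had close to 2-fold less signal there. Dusp3 and Dusp14 differed by less than 2-fold, and Dusp10 was under the floor on both arrays. The floor, a signal of 14.0, is the 40th percentile of the signals of both arrays without control probe sets, and signals under it were set to it before a ratio was taken. Of the 5 members with a ratio, 2 (40.0%) were higher by 2-fold or more in the knockout, against 7.37% of the 8304 genes with a ratio. Lower by 2-fold or more were 0 of 5, against 9.92% of all genes with a ratio. Their log2 ratios, knockout over control, had a median of 0.39, against 0.05 for all genes, with a range over the members of -0.97 to 1.71. No test compares 5 genes with the rest of the array, and nothing particular to the set is read from these values.

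**Figure D1:**
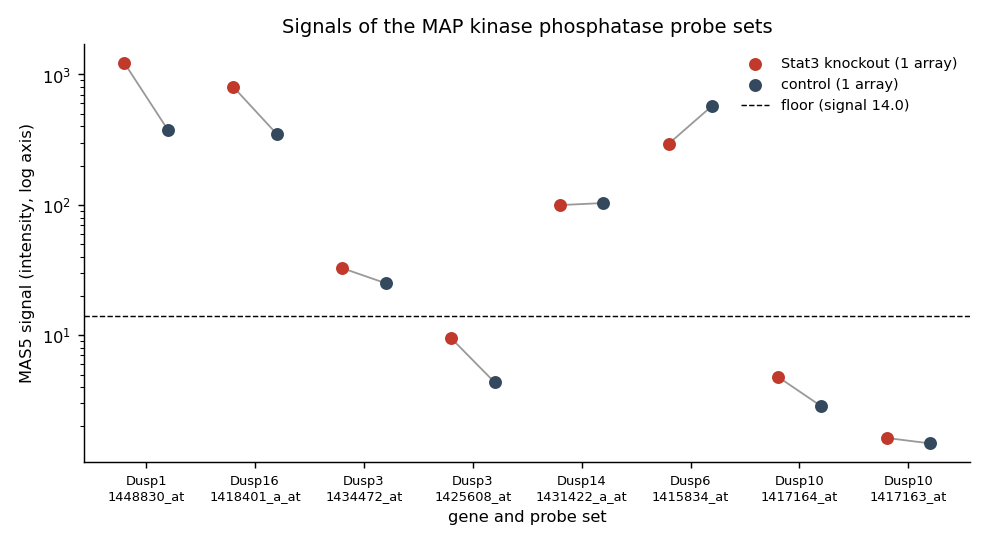
MAS5 signals, on a log axis, of all 8 probe sets of the 6 represented genes in the Stat3 knockout array (red) and the control array (dark), with 1 point per array and no error bars because each group had 1 array. Dusp1 and Dusp16 stand higher in the knockout, Dusp6 stands lower there, and 3 probe sets lie under the floor of 14.0 (dashed) on both arrays.

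Dusp1 (gene ID 19252) was read by 1 probe set, 1448830_at, at a signal of 1225 in the Stat3 knockout array and 375 in the control array. Signals are MAS5 intensities, a background-corrected brightness on a linear scale. The difference was 3.26-fold, a log2 ratio of 1.71, and it was the largest of the members. Over the 7513 genes with both signals above the floor, 97 had a higher log2 ratio than Dusp1. In 4.51% of those genes the log2 ratio was further from 0 in either direction. For comparison, log2 ratios from different probe sets of the same gene had an SD of 0.31 across 2855 genes, an error that leaves out the spread between animals and between arrays.

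Dusp16 (gene ID 70686) reached a signal of 803 in the Stat3 knockout array and 349 in the control array, which was 2.30-fold higher (log2 ratio 1.20). Its only probe set, 1418401_a_at, is of a design that can pick up several transcripts of the gene, so the value does not say which transcript differed. A higher log2 ratio was found in 328 of the 7513 genes. Dusp1 and Dusp16 were therefore both brighter in the knockout and both past the limit, with a difference of 0.50 between their log2 ratios.

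Dusp10 (gene ID 63953), the other phosphatase that prefers JNK and p38, gave no ratio. Its probe set 1417164_at had signals of 4.81 in the Stat3 knockout array and 2.86 in the control array, and 1417163_at had 1.63 in the knockout and 1.48 in the control. All 4 values were under the floor, so no direction is given for this gene.

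Dusp6 (gene ID 67603) was read by 1 probe set, 1415834_at, at a signal of 295 in the Stat3 knockout array and 577 in the control array. The knockout kept 51.1% of the control signal, a log2 ratio of -0.97, which lies just inside the 2-fold limit. Of the 7513 genes, 686 had a lower log2 ratio. The log2 ratio of Dusp1 exceeded that of Dusp6 by 2.68, so the inducible nuclear phosphatase and the cytoplasmic ERK phosphatase lay on opposite sides of 0. Dusp6 was the only member with a ratio under 0 by more than the SD of 0.31 between probe sets.

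The atypical enzymes had small differences. Dusp3 (gene ID 72349) gave a signal of 32.7 in the Stat3 knockout array and 25.1 in the control array with probe set 1434472_at, a log2 ratio of 0.39. Its dimmer probe set, 1425608_at, had 9.52 in the knockout and 4.36 in the control, both under the floor. Dusp14 (gene ID 56405) had 99.6 in the knockout and 103 in the control with 1431422_a_at, a log2 ratio of -0.05. The difference of Dusp14 was smaller than the SD between probe sets, and that of Dusp3 was slightly larger than it. Dusp4 and Dusp5 were not analysed here, because no probe set could be named for them.

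The promoters of the 3 members with the largest differences are shown because these genes lay on both sides of 0 and because Dusp1 and Dusp16 differed in the same direction. Each window holds 250 bases before and 50 bases from the RefSeq start site in GRCm38.p6, written 5′ to 3′ along the gene's strand, with motif matches in capitals. The windows are chr17:26508423-26508722 (minus strand) for Dusp1, chr6:134792579-134792878 (minus strand) for Dusp16, where the start used by the table is not the outermost start of the gene, and chr10:99262981-99263280 (plus strand) for Dusp6.
Dusp1: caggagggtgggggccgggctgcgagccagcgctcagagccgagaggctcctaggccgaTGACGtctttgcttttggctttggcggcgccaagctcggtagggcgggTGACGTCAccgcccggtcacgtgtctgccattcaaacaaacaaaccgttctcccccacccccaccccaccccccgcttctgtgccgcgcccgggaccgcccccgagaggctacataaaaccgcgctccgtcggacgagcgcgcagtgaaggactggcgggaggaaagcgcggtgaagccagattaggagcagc
Dusp16: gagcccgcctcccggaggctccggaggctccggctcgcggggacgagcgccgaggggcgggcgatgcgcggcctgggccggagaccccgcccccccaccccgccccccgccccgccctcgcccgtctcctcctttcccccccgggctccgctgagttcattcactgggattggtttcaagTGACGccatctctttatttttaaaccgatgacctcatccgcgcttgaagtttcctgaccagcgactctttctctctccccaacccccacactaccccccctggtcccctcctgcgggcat
Dusp6: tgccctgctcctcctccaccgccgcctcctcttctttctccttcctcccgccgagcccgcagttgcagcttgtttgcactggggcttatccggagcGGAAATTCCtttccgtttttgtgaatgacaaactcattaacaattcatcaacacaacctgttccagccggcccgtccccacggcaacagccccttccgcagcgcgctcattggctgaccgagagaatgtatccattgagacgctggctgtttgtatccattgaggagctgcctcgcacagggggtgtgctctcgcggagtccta
The motifs searched on both strands were TGACGTCA (the cAMP response element) and its part TGACG, which lies inside it, TTCNNNGAA (STAT-type), TGANTCA (AP-1), GGAANT (ETS-type) and the serum response element core.

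The Dusp1 window held TGACGTCA at -143 to -136 from the start site, which is itself counted as 1, and a further TGACG at -191 to -187. TGACGTCA was in 1.79% of the 32851 windows of the table and in 1 of the 7 member windows. The Dusp16 window held TGACG at -70 to -66, and TGACG was in 20.8% of all windows and in the windows of Dusp1, Dusp5 and Dusp16. The Dusp6 window held 2 overlapping GGAANT matches, from -154 to -149 and, on the other strand, from -151 to -146. GGAANT was in 53.4% of all windows, so its presence sets no window apart. TTCNNNGAA was found in the Dusp14 window, at -200 to -192, and in no other member window, against 8.30% of all windows. TGANTCA was in 0 of the 7 member windows and in 7.81% of all windows. The serum response element core was in the Dusp5 window, which held 2 matches, and in 1.63% of all windows. These matches describe letters in 300 bases and not binding, and factors may act outside them.

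All 7 member windows had a share of G and C above the median over all windows, a feature that the choice of genes did not use. The share of G and C was 67.0% for Dusp1, 68.7% for Dusp16 and 57.3% for Dusp6. Those of Dusp3, Dusp14, Dusp10 and Dusp5 had 71.3%, 69.7%, 61.0% and 66.7%. The median over all windows was 52.7%, with an upper quartile of 61.7%, which the windows of Dusp6 and Dusp10 did not reach. All windows here means every window of the table, not those of genes measured on the arrays. Nothing particular to the members is read from the comparison. Of the 3 windows printed, that of Dusp6 had the lowest share.

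**Figure D2:**
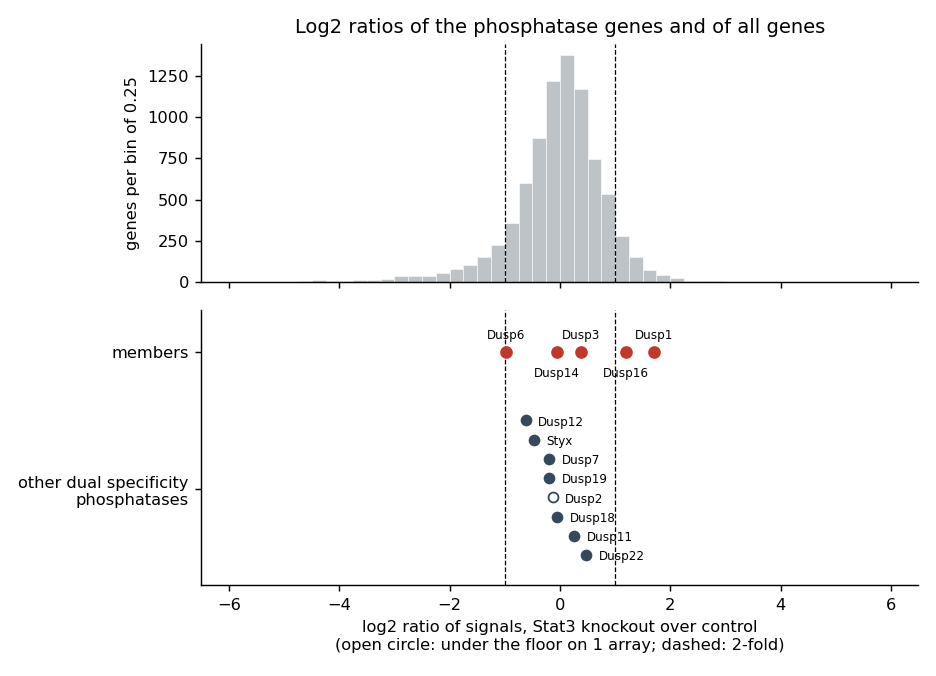
Upper panel, number of genes per bin of log2 ratio (Stat3 knockout over control) for the 8304 genes with a ratio. Lower panel, log2 ratios of the 5 members with a ratio (red) and of 8 other dual specificity phosphatases (dark, open where 1 array was under the floor), with 1 array per group. Dusp1 and Dusp16 lie beyond the 2-fold line (dashed), Dusp6 lies just inside it, and the other phosphatases lie within it.

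The other dual specificity phosphatases on the array lay within 2-fold of control wherever they had a ratio. Of 14 other members of the family that were represented, 8 had a ratio, and 0 passed the 2-fold limit in either direction, against 17.3% of all genes. Their median log2 ratio was -0.17, and 6 of the 8 had a ratio under 0. Dusp12 had the lowest ratio among them, with a signal of 51.7 in the knockout and 79.6 in the control (log2 ratio -0.62). Styx, which encodes a catalytically dead relative of these enzymes, had 65.9 in the knockout and 91.8 in the control (log2 ratio -0.48). Dusp22, a phosphatase linked to JNK signalling, had the highest, with 67.6 in the knockout and 48.6 in the control (log2 ratio 0.48). Dusp11, which acts on RNA rather than on kinases, had a signal of 373 in the knockout and 312 in the control (log2 ratio 0.26).

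Dusp7, a cytoplasmic ERK phosphatase closely related to Dusp6, had a signal of 23.0 in the knockout and 26.4 in the control (log2 ratio -0.20), and a second probe set had a log2 ratio of -0.42. Dusp19 had 107 in the knockout and 123 in the control (log2 ratio -0.20), and its dimmer probe set had 54.2 in the knockout and 76.6 in the control (log2 ratio -0.50), a difference larger than the SD between probe sets. Dusp18 had 21.3 in the knockout and 22.2 in the control (log2 ratio -0.06). Dusp2, an inducible nuclear phosphatase, was under the floor in the knockout and had 15.4 in the control, so its log2 ratio is at most -0.14. Dusp8, Dusp9, Dusp13, Dusp15, Dusp26 and Styxl1 were under the floor on both arrays and have no ratio.

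Among 8 other phosphatases with a ratio that act on MAP kinases, only Ptprr passed the limit, against 17.3% of all genes in either direction. Nothing particular to the list is read from this count. Ptprr, a tyrosine phosphatase that binds ERK and p38, had a signal of 626 in the knockout and 222 in the control, or 2.81-fold higher, with a probe set whose design allows several transcripts. The other 7 lay within 2-fold. The protein phosphatase 2A genes Ppp2r1a, which encodes the scaffold subunit, and Ppp2ca, which encodes a catalytic subunit, had 2537 in the knockout and 2167 in the control, and 1238 in the knockout and 1310 in the control. A dimmer Ppp2ca probe set had 152 in the knockout and 236 in the control (log2 ratio -0.63). The list's median log2 ratio was 0.13.

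The kinases that the phosphatases act on, and the kinases above them, mostly lay within 2-fold. Of 10 MAP kinase genes with a ratio, 2 passed the 2-fold limit upward in the knockout and 0 downward, against 7.37% and 9.92% of all genes. The median log2 ratio of the 10 was 0.39. Mapk13, which encodes p38 delta, had a signal of 604 in the knockout and 243 in the control, or 2.49-fold higher. Nlk, which encodes Nemo-like kinase, an atypical relative, had 933 in the knockout and 441 in the control (2.11-fold), and its second probe set had 628 in the knockout and 224 in the control (2.80-fold). Mapk14, which encodes p38 alpha, had 271 in the knockout and 288 in the control (log2 ratio -0.09), while a dim probe set of it that was under the floor in the control had a log2 ratio of at least 0.52.

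Mapk11, which encodes p38 beta, had a signal of 166 in the knockout and 98.0 in the control (log2 ratio 0.76). The JNK genes Mapk8 and Mapk9 had 88.9 in the knockout and 78.9 in the control, and 110 in the knockout and 76.9 in the control, with log2 ratios of 0.17 and 0.52. A dimmer Mapk8 probe set had a log2 ratio of 0.96, so the probe sets of this gene disagree by more than the usual spread. The 2 dimmer Mapk9 probe sets had smaller log2 ratios than the 0.52 of the brightest, at 0.08 and 0.13. Mapk6, which encodes the atypical kinase ERK3, had the lowest ratio of the list, with 112 in the knockout and 165 in the control (log2 ratio -0.56). Mapk12, which encodes p38 gamma, and Mapk7, which encodes ERK5, had log2 ratios of 0.36 and 0.41. Mapk10 was over the floor in the knockout alone, with a log2 ratio of at least 0.07.

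Of 6 MAP kinase kinase genes, 1 passed the limit upward and 0 downward, against 7.37% and 9.92% of all genes. This was Map2k6, which encodes an activator of p38, with a signal of 167 in the knockout and 67.7 in the control (2.47-fold higher). Its probe set is again of a design that allows several transcripts. Map2k1, which encodes the ERK activator MEK1, had 414 in the knockout and 329 in the control (log2 ratio 0.33). Map2k3, which encodes the other main p38 activator, had 327 in the knockout and 423 in the control (log2 ratio -0.37), with a log2 ratio of 0.14 in its other probe set. Map2k6 and Mapk13 thus lay past the limit on the side of Dusp1 and Dusp16, whereas Map2k3 and Mapk14 did not. Of 10 RAF and MAP kinase kinase kinase genes with a ratio, 0 were past the limit in either direction, against 17.3% of all genes. Among those 10, 8 had a ratio above 0, and the median log2 ratio was 0.31. Of 14 RAS proteins, exchange factors and scaffolds with a ratio, 0 passed the limit upward and 1 downward. Over all genes the shares were 7.37% and 9.92%, so the downward count lay near the share. The gene past the limit was Rras2, a RAS-related GTPase gene, with 195 in the knockout and 436 in the control (2.23-fold lower). Its other probe set had 118 in the knockout and 372 in the control (3.16-fold lower). A gene of this list inside the limit, with a log2 ratio of -0.10, had a dimmer probe set past it upward. That probe set had 216 in the knockout and 98.1 in the control (2.21-fold higher). The upward count of the list was 1 with the floor at the 20th percentile or no floor, against 10% and 15.5% of all genes.

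**Figure D3:**
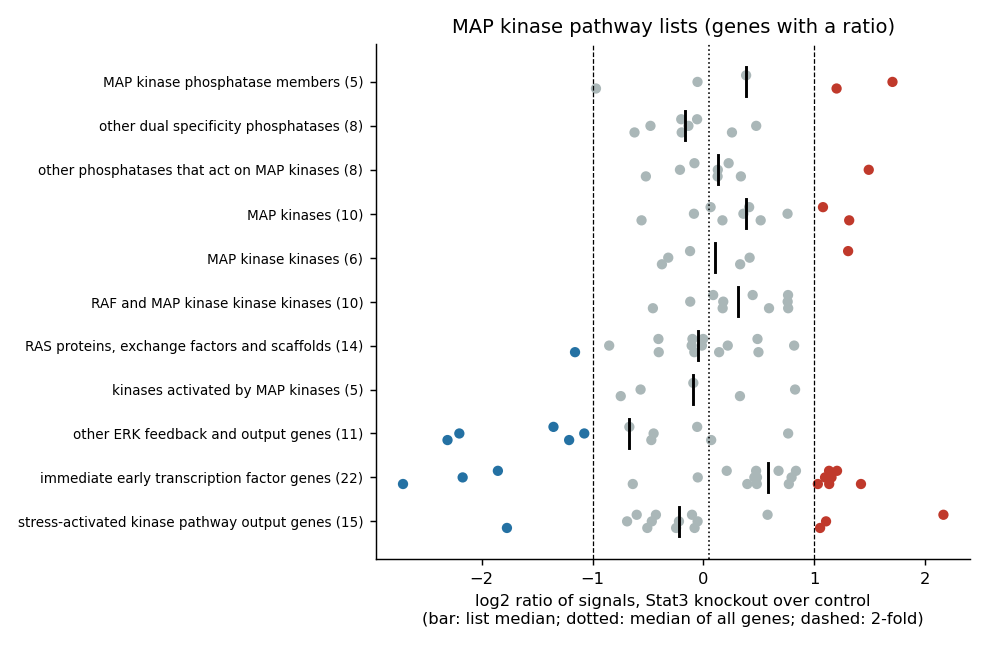
Log2 ratios (Stat3 knockout over control, 1 array per group) of single genes in the phosphatase set and in 10 lists of MAP kinase pathway genes, with the number of genes that had a ratio in brackets. Red and blue points are at least 2-fold higher and lower, and black bars are list medians. Of the 11 sets drawn, the ERK feedback and output list has the lowest median (-0.67) and the immediate early gene list the highest (0.58).

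Other genes that ERK signalling is known to induce were set beside Dusp6. Of 11 such ERK feedback and output genes with a ratio, 5 passed the 2-fold limit downward and 0 upward, against 9.92% and 7.37% of all genes, and the median log2 ratio was -0.67. Phlda1 had a signal of 66.2 in the knockout and 328 in the control, or 4.96-fold lower. Ccnd1, which encodes cyclin D1, had 115 in the knockout and 530.3 in the control, or 4.60-fold lower, and its other probe sets were 5.00-fold and 5.17-fold lower. Etv5, an ETS transcription factor gene, was 2.55-fold lower, with 21.1 in the knockout and 53.9 in the control, but its other probe set was under the floor in the knockout and had 16.6 in the control, a log2 ratio of at most -0.24. Spry1, which encodes the feedback inhibitor Sprouty 1, was 2.32-fold lower (39.4 in the knockout and 91.3 in the control), and Ier3 was 2.11-fold lower (485 in the knockout and 1021 in the control).

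Of the 11 ratios, 9 were below 0, as was that of Dusp6, and the other 2, of Errfi1 and Lgals3, were above it. For 1 of the 9, with a log2 ratio of -0.06, the 2 dimmer probe sets had log2 ratios above 0 (0.26 and 0.90). Errfi1, which encodes a feedback inhibitor of the EGF receptor, had 781 in the knockout and 460 in the control (log2 ratio 0.76). Lgals3, which encodes galectin 3, had 485 in the knockout and 462 in the control (log2 ratio 0.07), and Spred2, which encodes an inhibitor of RAF activation, had 293 in the knockout and 399 in the control (log2 ratio -0.45). The count of 5 depends on the setting. It was 3 of 9 with the floor at the 60th percentile (7.27% of all genes) or without probe sets designed for several transcripts (9.74%). With the floor value added to both signals it was 3 of 11 (8.06%), and with probe sets averaged 4 of 11 (9.46%). It was 7 of 13 with no floor (14.3%), where the genes so added had signals under the floor of 14.0 on both arrays. Of 11, it was 2 at a 3-fold limit (4.83%) and 6, with 1 gene higher, at a 1.5-fold limit (18.6%). Genes of cell division also differed widely between these arrays, with 14 of 14 G2 and M phase genes past the 2-fold limit downward in the knockout and a median log2 ratio of -4.50. The part of that difference in the values of Dusp6, Ccnd1 and the other ERK output genes was not tested.

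Dusp1 is an immediate early gene, transcribed within minutes of a stimulus together with factors such as Fos and Egr1. Of 22 immediate early transcription factor genes with a ratio, 7 passed the 2-fold limit upward and 3 downward in the knockout, against 7.37% and 9.92% of all genes, 17 ratios were above 0, and the median log2 ratio was 0.58. Egr1 had a signal of 1239 in the knockout and 462 in the control (2.68-fold higher), Btg2 had 1388 in the knockout and 602 in the control (2.31-fold higher), and Jun had 1738 in the knockout and 780.0 in the control (2.23-fold higher). The dimmer probe sets of Btg2 and Jun were 1.90-fold and 1.81-fold higher, inside the limit. The 3 that were lower were Myc (6.55-fold), Klf4 (4.51-fold) and Ier5 (3.62-fold). Fos itself had 3147 in the knockout and 1967 in the control (log2 ratio 0.68). The downward count of 3 in 22 lay near the share over all genes. The upward count of 7 was 4 with the floor at the 60th percentile or with the floor value added to both signals, 11 at a 1.5-fold limit and 0 at a 3-fold limit, where all 3 lower genes remained past it. Over all genes the upward shares in these settings were 5.61%, 5.17%, 19.4% and 1.72%, and 4.83% were lower at the 3-fold limit. Warm digestion of tissue is known to induce such genes, and with 1 array per group the handling of the samples and the genotype cannot be told apart.

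Genes known as outputs of the stress-activated kinases had ratios on both sides of 0, with 11 below it and 4 above. Of 15 with a ratio, 3 passed the 2-fold limit upward and 1 downward, against 7.37% and 9.92% of all genes, and the median log2 ratio was -0.22. With the floor at the 60th percentile, 8 of these genes had a ratio and the upward count was 1, as it was at a 3-fold limit. The downward count was 2 with the floor at the 20th percentile or no floor, and 3 at a 1.5-fold limit. Over all genes the upward shares were 5.61% with the floor at the 60th percentile and 1.72% at a 3-fold limit. The downward shares were 10.2% with the floor at the 20th percentile, 14.3% with no floor and 18.6% at a 1.5-fold limit. Il6, which encodes interleukin 6, had a signal of 80.6 in the knockout and 17.9 in the control (4.49-fold higher), Ppp1r15a had 249 in the knockout and 116 in the control (2.15-fold), and Ptgs2, which encodes cyclooxygenase 2, had 102 in the knockout and 49.2 in the control (2.08-fold). The control signal of Il6 lay close to the floor of 14.0 and under that at the 60th percentile (64.3), so the size of its ratio depends on the floor. A dimmer Ptgs2 probe set was 1.98-fold higher, just inside the limit. Gadd45a, a stress and growth arrest gene, had 121 in the knockout and 414 in the control (3.42-fold lower). Of 5 kinases activated by MAP kinases, 0 were past the limit in either direction, against 17.3% of all genes. Rps6ka3, which encodes the ERK-activated kinase RSK2, had 595 in the knockout and 997 in the control (log2 ratio -0.75), and Mknk2 had 1476 in the knockout and 1174 in the control (log2 ratio 0.33).

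The arrays and the cell preparation bear on all of these values. The targeted gene, Stat3 (gene ID 20848), had signals of 186 in the knockout and 582 in the control with probe set 1460700_at, or 3.12-fold lower, and whether this probe set lies in the deleted part was not determined here. The epithelial keratin gene Krt8 had 4289 in the knockout and 4220.4 in the control, and the 11 epithelial markers named on the array summed to 23021 in the knockout and 22978 in the control. Of these markers 2 were past 2-fold lower (Muc1, 4.22-fold, and Krt7, 3.46-fold) and 1 was past 2-fold higher (Ehf, 2.35-fold), while Elf3 was 1.95-fold lower. The 12 stromal markers summed to 3616 in the knockout and 2628 in the control, with 9 of 10 ratios above 0, none past 2-fold, and Hand2 and Pdgfrb under the floor on both arrays. Stromal RNA was present on both arrays, and the brightest marker, Dcn, had 1753 in the knockout and 1235 in the control. Col3a1 had 721 in the knockout and 570 in the control, although a dimmer probe set had 32.2 in the knockout and 35.6 in the control. Vim had 432 in the knockout and 300 in the control. The 13 leukocyte markers summed to 806 in the knockout and 593 in the control, with 7 of 9 ratios above 0, 1 past 2-fold (C1qa, 2.03-fold), and Cd3e, Itgam, Nkg7 and S100a8 under the floor. The brightest leukocyte marker, Lyz2, had 296 in the knockout and 154 in the control (1.93-fold higher). Csf1r had 144 in the knockout and 85.8 in the control. The 8 smooth muscle markers summed to 145 in the knockout and 219 in the control, with all 4 ratios below 0, 1 past 2-fold (Smtn, at least 3.06-fold lower), and Myh11, Cnn1, Des and Actg2 under the floor. The 10 endothelial markers summed to 155 in the knockout and 137 in the control, with Pecam1, Kdr, Tek, Emcn and Tie1 under the floor. In such bulk RNA, fewer cells of a type and less RNA per cell cannot be told apart, and the part of these marker differences in the phosphatase values was not tested. The 3′ over 5′ signal of Gapdh, a measure of RNA breakdown, was 0.699 in the knockout and 0.736 in the control.

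**Figure D4:**
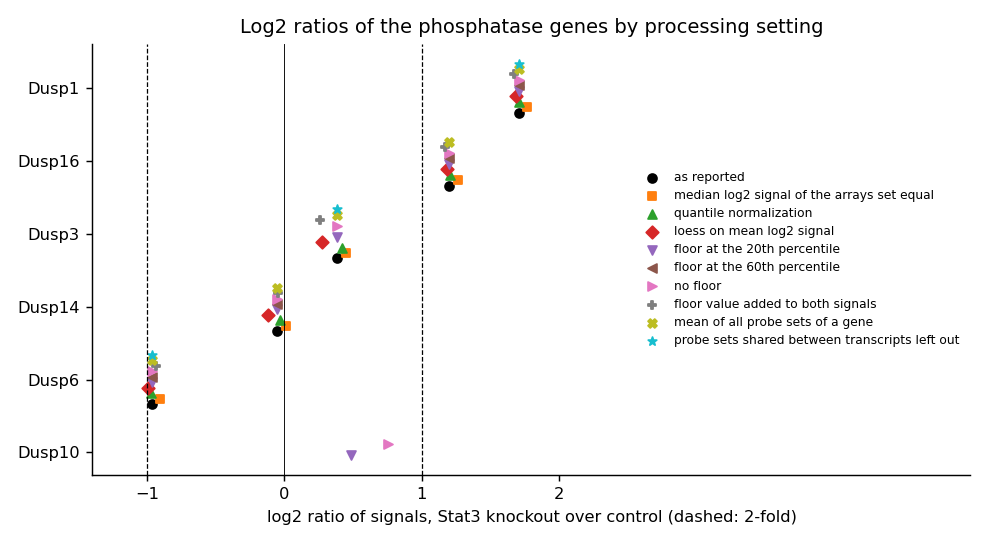
Log2 ratios (Stat3 knockout over control, 1 array per group) of the 6 represented phosphatase genes under the reported setting (black) and 9 alternatives, with the 2-fold limit dashed. Dusp1 (1.67 to 1.77 under the alternatives) and Dusp16 (1.17 to 1.27) stay past the limit wherever they are measured, Dusp6 (-0.99 to -0.91) stays inside it, and Dusp10 has a value under 2 alternatives, of which that with the floor at the 20th percentile is a lower bound. Other floor percentiles, no floor and the averaging of probe sets could not change Dusp1, Dusp16 or Dusp6.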

How the data were processed

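Per the labels' protocols, labelling started from 100 ng of total RNA. The deposited intensity values, 1 for each probe set on each array, are on a linear scale and were made with MAS5 in Affymetrix Expression Console 1.1, per the submitters' processing notes. Their 2% trimmed mean was 150.1 on either array, which shows that the authors had scaled them to a common level. Arrays give no counts, and their number limits the precision. The extraction protocol in the labels speaks of human endometrial stromal cells, while the organism and cell type labels name mouse uterine epithelium.

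Groups were taken from the genotype label. Of 22626 probe sets that are not controls, 20380 were paired with 1 gene in the platform annotation, 691 with several and 1555 with none, and current symbols were taken from a RefSeq table (GRCm38.p6) for the 20351 whose gene ID it holds. Each gene was represented by its brightest probe set (mean log2 signal over the arrays). A gene below the floor on both arrays has no ratio, and 1 below it on a single array has a bound. The log2 ratio was the log2 of knockout over control signal with no pseudocount, and the fold limit was 2. Genes, lists and phosphatases alike, were counted at that limit with no test. The steps were tested on simulated data (Python 3.11.15, pandas 2.3.3, numpy 2.4.6, statsmodels 0.14.6).

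The members, 18 gene lists (248 names, 216 of them on the array) and the rule for naming genes were chosen with earlier results of these data known. That rule named all members, the other family members and MAP kinases, and from each list at most 6 genes past the limit, by size of ratio, and at most 3 bright genes inside it. Alternatives changed the scaling, the floor, the probe set rule or the fold limit. Promoter windows and gene names are RefSeq's, and 7 of the 8 members had a window. Protein sequences, planned for a comparison of the members, were not used here.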

Additional observations from a re-analysis of the deposited data

How the results depend on the processing

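No paired analysis was possible because each group had 1 array. The count of 2 members at least 2-fold higher was unchanged under 9 of 11 alternatives. Some of these could not have changed the ratios of Dusp1, Dusp16 or Dusp6, each read by 1 probe set with signals above every floor used. These were the floors at other percentiles, no floor and the averaging of probe sets. A 1.5-fold limit also could not remove Dusp1 or Dusp16. The count of members at least 2-fold higher was 1 without probe sets designed for several transcripts, because Dusp16 and Dusp14 then have no probe set. It was also 1 at a 3-fold limit. The count of 0 members at least 2-fold lower became 1 (Dusp6) at a 1.5-fold limit, where 18.6% of all genes were lower, and was 0 under the other 10 alternatives. The median log2 ratio of the members lay between 0.26 and 0.57. Dusp14 lay on either side of 0 (-0.12 to 0.01), and Dusp10 had a log2 ratio of at least 0.48 with the floor at the 20th percentile, where the control was under it, and of 0.75 with no floor. For 30 further genes, none of 260 values changed sign and 16 fell inside 2-fold. These genes were Stat3 and those past the limit in the pathway, immediate early, stress and steroid-induced lists. Many of the signs could not have changed. A different floor, its removal or the same constant on both signals cannot turn a ratio round. The probe set rules could remove but not alter the ratio of a gene read by 1 probe set. The absence of sign changes therefore bears only on the scaling alternatives and, for the probe set rules, on genes with several probe sets. Single genes of the cell division and marker lists were not followed. At a 3-fold limit 0 genes were past it among the MAP kinases, the MAP kinase kinases, the RAS list and the other phosphatases of MAP kinases. Over all 8304 genes with a ratio, 612 (7.37%) were higher and 824 (9.92%) lower at the reported setting. With no floor these were 1927 (15.5%) and 1774 (14.3%) of 12393 genes. With the floor at the 20th percentile they were 1094 (10%) and 1113 (10.2%) of 10943, and at the 60th percentile 346 (5.61%) and 449 (7.27%) of 6173. Of the 8304 genes, 1607 (19.4%) and 1541 (18.6%) were past a 1.5-fold limit, and 143 (1.72%) and 401 (4.83%) a 3-fold limit. Signal over background limits what can be said of Dusp10, whose signals were under the floor, and of Dusp3, which the floor at the 60th percentile left without a ratio.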

Other observations

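Dusp1 is also known as a gene that glucocorticoids induce, and other genes induced through glucocorticoid or progesterone receptors were therefore counted. Of 16 with a ratio, 3 passed the 2-fold limit upward in the Stat3 knockout array and 2 downward, against 7.37% and 9.92% of all genes, and the median log2 ratio was 0.21. The downward count, which lay near the share over all genes, was 1 when the probe sets of each gene were averaged or with the floor at the 60th percentile. The upward count was 6 at a 1.5-fold limit and 2 at a 3-fold limit. Over all genes, 9.46% were lower with averaged probe sets and 7.27% with the floor at the 60th percentile. At the 1.5-fold and 3-fold limits, 19.4% and 1.72% of all genes were higher. Per1, a clock gene, had a signal of 176 in the knockout and 48.2 in the control (3.65-fold higher). Sgk1, a kinase gene, had 3140 in the knockout and 922 in the control (3.40-fold higher), and Tsc22d3, which encodes the glucocorticoid-induced leucine zipper protein, had 1105 in the knockout and 382 in the control (2.89-fold higher), with 3.43-fold and 2.48-fold in its other probe sets. Cebpd was 3.55-fold lower, with 135 in the knockout and 479 in the control, although a dim probe set of it that was under the floor in the control had a log2 ratio of at least 0.07. Hsd11b2, which encodes an enzyme that inactivates glucocorticoids, was 3.02-fold lower, with 20.1 in the knockout and 60.6 in the control. The metallothionein genes Mt1 and Mt2 had log2 ratios of 0.20 and 0.21. A dimmer Mt1 probe set had 375 in the knockout and 184 in the control (2.04-fold higher), so the probe sets of Mt1 disagree. Nfkbia, which encodes an inhibitor of NF-kappa-B, had a log2 ratio of -0.31.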
